A study of Homo sapiens with 10 samples.

Results

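The genes described are the cytosolic translation initiation and elongation factors, their regulators and their close gene copies, taken as every gene whose only symbol in the platform annotation began with EIF or EEF and a digit. The rule named 66 genes, measured by 147 spots, of 18334 genes and 31332 spots that carried 1 symbol, and it used no measured value. The samples were A549 cells, an established human lung adenocarcinoma line that serves as a model of the alveolar epithelium, grown either as a conventional monolayer or in a rotating wall vessel (RWV), a slowly turning fluid-filled chamber in which cells stay suspended. The 10 one-colour arrays (Cy3) held total RNA of 5 monolayer and 5 RWV cultures, biological replicates per the labels. The medium was the same by the labels, Dulbecco's modified Eagle's with glutamine at 4 mM and foetal calf serum at 10%, and they name no other treatment and no time in culture. The question set by the design was how RWV growth differed from monolayer growth, and each difference below is RWV minus monolayer.

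Protein synthesis starts when eIF2 brings the initiator tRNA to the small ribosomal subunit, eIF3 and the eIF4 group attach that subunit to a capped mRNA, and the complex scans to a start codon, where eIF5 and eIF5B bring in the large subunit. Stress kinases phosphorylate the alpha subunit of eIF2, which then blocks its exchange factor eIF2B, while the 4E-binding proteins hold back the cap-binding factor eIF4E under the control of mTORC1. Elongation is carried by eEF1, which delivers aminoacyl-tRNA, and by eEF2, which moves the ribosome along. Messengers of elongation factors and ribosomal proteins often begin with a run of pyrimidines, through which mTORC1 controls their translation.

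A log2 level below is log2 of the quantile-normalised intensity plus 50, averaged over the spots of a gene. A gene passed the test when its limma p, adjusted over all 18334 genes by the Benjamini-Hochberg method, was below 0.05. In RWV cultures 18 of the 66 translation factor genes were lower, 6 were higher and 42 did not pass. RNA was measured in bulk, so fewer cells of a kind and less RNA per cell cannot be told apart. The share past the test was 36.4%, where 30.2% of all genes passed. Lower genes made up 27.3% of the members against 15.4% of all genes, and higher genes 9.09% against 14.8%. The median log2 fold change was -0.13 over the members and 0.00 over all genes. The arrays of the groups did not overlap for 18 members, 27.3% of them, against 23.1% of all genes.

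The 6 higher genes were EEF1A2, EEF1AKMT3, EIF2AK3, EIF2AK3-DT, EIF4A2 and EIF4EBP2. Of 44 genes with an EIF symbol, 17 were lower and 1, EIF4A2, was higher, with a median of -0.27. This count leaves out the eIF2 kinases, the 4E-binding proteins, transcripts with a -DT symbol and EIF2S3B. It keeps the copies EIF1AY and EIF1B, and its lower genes include EIF4A3, EIF4E2, EIF5A, EIF5A2 and EIF6, whose other roles are given below. The 5 genes of subunit joining and late steps had 4 lower and a median of -0.57. The 11 genes of the eIF4 group had 6 lower and 1 higher, with a median of -0.45, which was -0.27 over the 9 genes left when saturated spots were removed. Among the 14 genes with an EIF3 symbol 4 were lower, with a median of -0.22. The 13 genes with an EEF symbol had 2 higher and 1 lower, and their median of 0.14 became -0.03 on the values as deposited, where the median of all genes was -0.13.

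**Figure D1:**
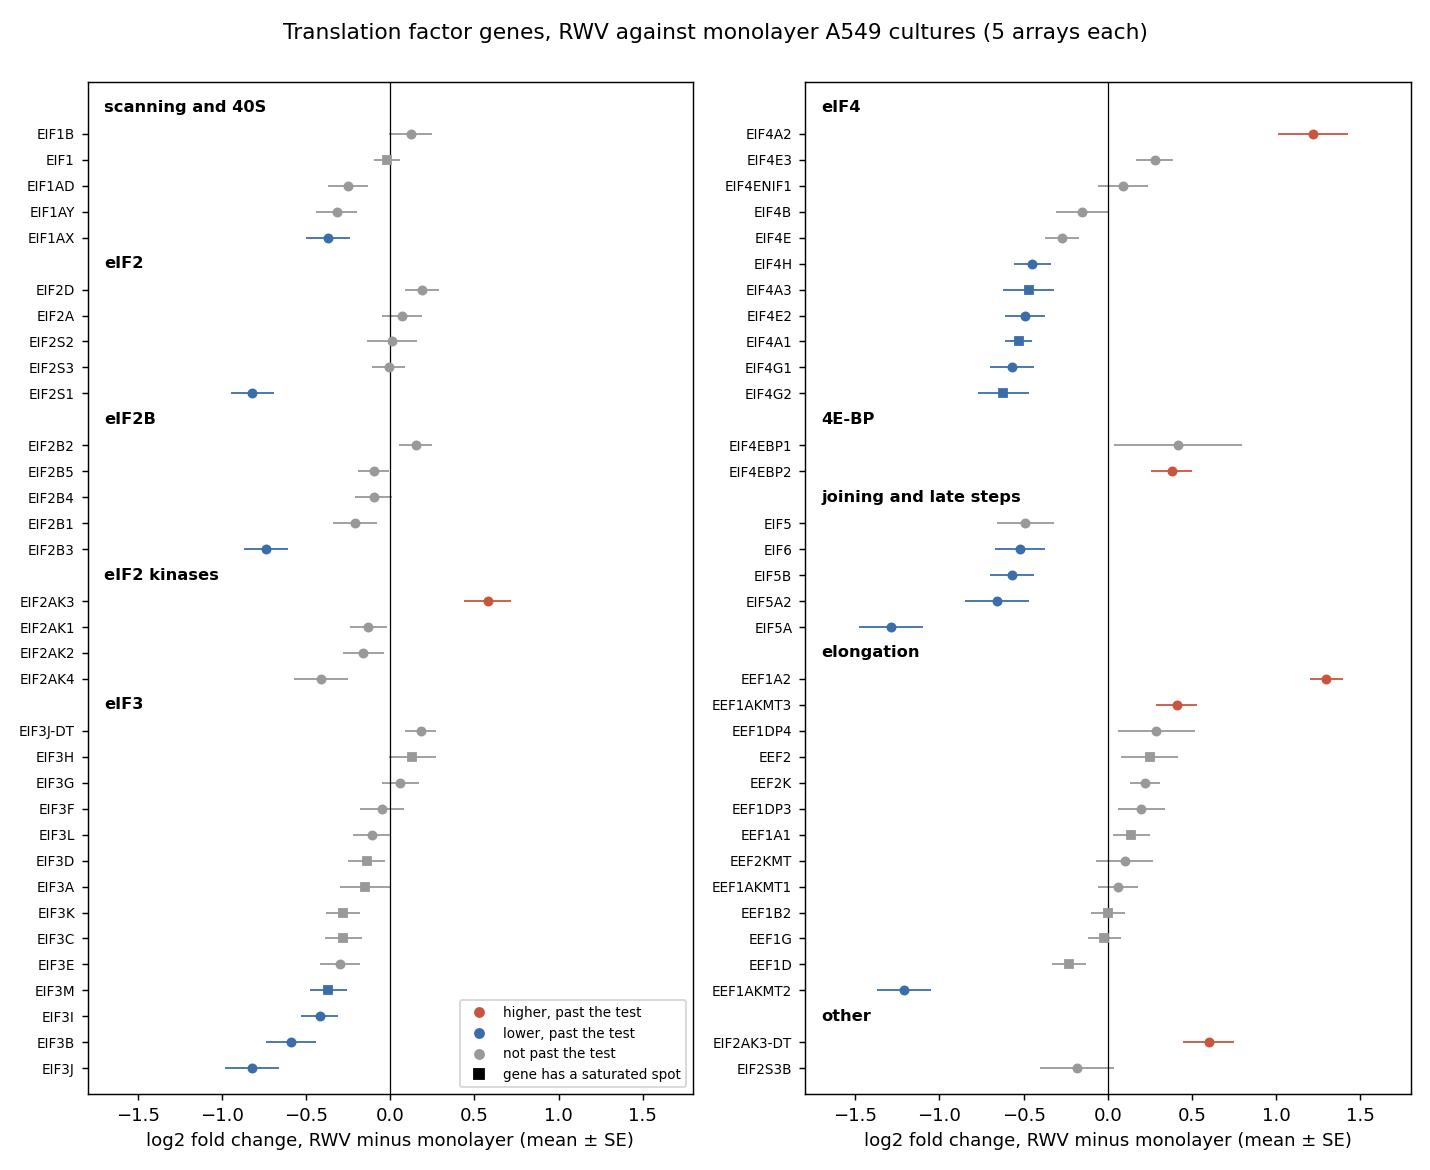
Log2 fold change (RWV minus monolayer, mean ± SE, 5 arrays a group) of the 66 genes, ordered within their families, with colour for the outcome of the limma test and squares for genes that have a saturated spot. All 5 genes of joining and late steps lie left of 0, and EIF4A2 and EEF1A2 lie farthest to the right.

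**Figure D2:**
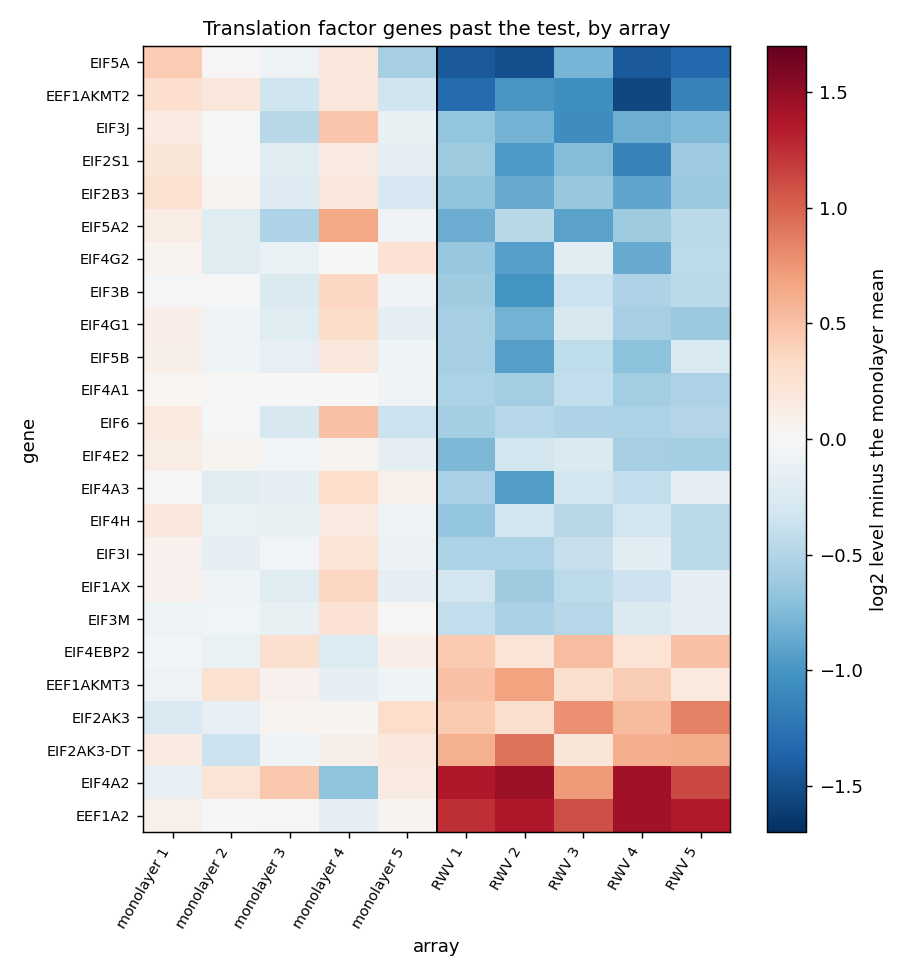
Log2 level of each of the 24 genes past the test on each of the 10 arrays, minus the monolayer mean of that gene, from blue (lower) to red (higher). The 18 lower genes are blue on all 5 RWV arrays and the 6 higher genes red, while the monolayer columns scatter about 0.

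Transcript starts are shown because members with and without a run of pyrimidines there differed in how many passed the test. This split was chosen after the values were seen and is a description with no test. RefSeq start windows (assembly GRCh38.p14) matched 51 of the 66 members. A start counted as a pyrimidine start when it began with C followed by at least 4 further C or T bases, read on the strand of the gene. Each line gives 10 bases before the start and 20 from it, 5′ to 3′, with the pyrimidine run in capitals, first for genes that have one.
EEF1A1: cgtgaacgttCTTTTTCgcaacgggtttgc
EEF2: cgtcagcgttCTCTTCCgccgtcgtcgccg
EEF1B2: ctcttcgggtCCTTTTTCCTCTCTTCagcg
EIF2S3: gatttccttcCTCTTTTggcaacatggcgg
EIF3F: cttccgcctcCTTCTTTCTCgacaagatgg
EIF4B: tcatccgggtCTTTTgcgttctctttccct
EIF3M: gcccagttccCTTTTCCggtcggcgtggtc
EIF4A2: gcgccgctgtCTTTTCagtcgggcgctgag
The windows lay at chr6:73521013-73521042 for EEF1A1, chr19:3985444-3985473 for EEF2, chr2:206159885-206159914 for EEF1B2, chrX:24054946-24054975 for EIF2S3, chr11:7987327-7987356 for EIF3F, chr12:53006446-53006475 for EIF4B, chr11:32583821-32583850 for EIF3M and chr3:186783567-186783596 for EIF4A2. EEF1A1 and EEF2 are read from the minus strand and the other 6 genes from the plus strand.

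Of the 38 matched members without such a start 18 did not pass the test, EIF2B2 and EIF2B5 among them, and none of these is printed. The genes without one that follow, in lower case throughout, were picked because they differed strongly between the cultures. These lines therefore cannot show how start and change go together.
EIF4A1: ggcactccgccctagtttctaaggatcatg
EIF2S1: gaggttccgcatgcgcggtggagtgagcga
EIF3J: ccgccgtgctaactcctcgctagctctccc
EIF2B3: gctgtcagtcagaggcggcgtggagatcgc
EEF1AKMT2: cgtccgctctgcctgtgccccgtctctatg
EIF2AK3: tgtccgagataggctgtcactcaggtggca
These windows lay at chr17:7572815-7572844 for EIF4A1, chr14:67360318-67360347 for EIF2S1 and chr15:44537137-44537166 for EIF3J on the plus strand, and at chr1:44986576-44986605 for EIF2B3, chr10:124791868-124791897 for EEF1AKMT2 and chr2:88627445-88627474 for EIF2AK3 on the minus strand. Of the 13 members with a pyrimidine start (EEF1A1, EEF1B2, EEF2, EIF2A, EIF2D, EIF2S3, EIF2S3B, EIF3D, EIF3F, EIF3K, EIF3M, EIF4A2 and EIF4B), 1 was higher, 1 was lower and 11 did not pass, with a median log2 fold change of -0.01. Of the 38 matched members without one, 3 were higher, 17 lower and 18 did not pass, with a median of -0.34. Among members with no saturated spot the medians were -0.01 for 7 genes with the start and -0.34 for 32 without. Over all matched genes the medians were 0.02 for 927 genes with such a start and 0.00 for 13483 without. Of the 927 genes 141 were higher and 149 lower, and of the 13483 others 1999 were higher and 2198 lower. Over all genes neither the medians nor the shares past the test showed this split. A pyrimidine start was present in 4.07% of all 35116 start windows and in 19.1% of the 68 windows of members. EEF1B2 and EIF2S3B each have another RefSeq start without the run. No match says only that these letters are not at the start RefSeq lists.

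The median deposited intensity ranged over the monolayer arrays from 122 to 184.5 and over the RWV arrays from 114 to 138, and 1.5% of spots at most held the same value on any pair of arrays. Arrays numbered 1 to 3 in each group and those numbered 4 and 5 had different lower ends of intensity, and are treated as array sets 1 and 2. All 24 members past the test kept their sign in both sets, with sizes of 0.36 to 1.36 in set 1 and 0.33 to 1.55 in set 2, though EEF1A2 alone passed the test within the 2 arrays a group of set 2. Both sets are parts of the arrays that gave the 24 calls, so the kept signs are no independent check. On the values as deposited the calls of EEF1AKMT3, EIF1AX, EIF2AK3, EIF3I, EIF3M, EIF4A3, EIF4EBP2 and EIF6 were lost. The epithelial markers KRT8, KRT18, KRT7, KRT19, CDH1 and EPCAM summed to normalised intensities of 59900 to 94500 in monolayer and 66900 to 117000 in RWV, KRT7 being lower and KRT19 higher. The 5 leukocyte markers summed to 212 to 337 and 205 to 259, the 6 fibroblast markers to 180 to 281 and 157 to 223, and the 3 endothelial markers to 102 to 162 and 91.4 to 177. PDGFRB, LUM, DCN, CD53, LAPTM5, PECAM1, VWF and CDH5 lay below a normalised intensity of 100, the dim level used here, on every array. TYROBP, CD3E, PTPRC, COL1A1, COL1A2 and COL3A1 had a spot at or above it on some arrays. TYROBP averaged 119.2 in monolayer and 103 in RWV, and COL1A1 114.3 and 68.48. CD53 passed the test as lower at -0.35 (adjusted limma p 0.0267), though dim in both groups.

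Among the factors that act on the small subunit during scanning, 1 of 5 genes passed the test. EIF1AX, the X-linked gene of eIF1A, which promotes scanning, had log2 levels of 12.31, 12.17, 12.03, 12.59 and 12.09 on monolayer arrays 1 to 5. Its RWV arrays had 11.92, 11.63, 11.79, 11.89 and 12.08. It was lower by a narrow margin, with overlapping arrays, at -0.37 ± 0.13 (SE) and an adjusted limma p of 0.0456, and 7 of the 10 fits that left out 1 array lost the call. EIF1AY, the Y-linked copy, was at -0.32 ± 0.12 (SE) and did not pass (0.0735, limma). EIF1, which guards start codon choice, had both of its spots saturated on every monolayer array and on 4 of 5 RWV arrays, so its level has only a bound. Its log2 levels were 15.99, 15.98, 15.98, 15.92 and 15.97 in monolayer and 15.92, 15.96, 15.98, 15.91 and 15.96 in RWV, which overlapped. EIF1B, a close copy of EIF1, and EIF1AD, named for its eIF1A domain, had log2 fold changes of 0.12 and -0.25 and did not pass. Probe sequences were not used here, so how far close copies share signal was not tested.

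The subunits of eIF2, the trimer that carries the initiator tRNA, did not move together. EIF2S1, the alpha subunit and the target of the stress kinases, had log2 levels of 11.01, 10.82, 10.59, 10.94 and 10.64 in monolayer. In RWV it had 10.19, 9.83, 10.06, 9.66 and 10.18. Every RWV array lay below every monolayer array, -0.82 ± 0.13 (SE), a 1.76-fold lower level (adjusted limma p 0.000786), and both of its spots were lower, at -0.62 and -1.02. EIF2S2, the beta subunit, and EIF2S3, the GTP-binding gamma subunit, had log2 fold changes of 0.01 ± 0.15 (SE) and -0.01 ± 0.10 (SE) and did not pass. The alternative tRNA carriers EIF2A (0.07) and EIF2D (0.19) did not pass either. EIF2S3B, an autosomal copy of EIF2S3, was at -0.18 ± 0.22 (SE) and did not pass.

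In eIF2B, the exchange factor that reloads eIF2 with GTP, EIF2B3 alone passed the test. The gene, which encodes the gamma subunit, had log2 levels of 9.96, 9.76, 9.48, 9.90 and 9.41 in monolayer and 9.02, 8.85, 9.06, 8.80 and 9.07 in RWV. The groups did not overlap, at -0.74 ± 0.13 (SE) (adjusted limma p 0.00113). EIF2B1, EIF2B2, EIF2B4 and EIF2B5, the last of which holds the catalytic domain, had log2 fold changes of -0.21, 0.15, -0.10 and -0.10, none past the test. The change of EIF2B3 was not tested against those of its partner subunits.

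Of the 4 eIF2 kinases 1 was higher in RWV and 0 were lower, though EIF2AK4 was lower with the array set as a block. EIF2AK3, or PERK, the kinase of endoplasmic reticulum stress, had log2 levels of 8.30, 8.42, 8.61, 8.61 and 8.86 in monolayer. In RWV the levels were 9.01, 8.83, 9.34, 9.10 and 9.42. The lowest RWV array lay just under the highest monolayer array, and the fold change was 0.58 ± 0.14 (SE), 1.49-fold (adjusted limma p 0.00888). On the values as deposited it was 0.34 and did not pass (0.409, limma). The amino acid sensor EIF2AK4, or GCN2, went the other way without passing, at -0.41 ± 0.16 (SE) (0.0768, limma). With the array set as a block it passed (adjusted limma p 0.00839), as it did with the replicate block (0.0129). EIF2AK1, the heme-regulated kinase, and EIF2AK2, or PKR, which senses double-stranded RNA, had log2 fold changes of -0.13 and -0.16 and did not pass. EIF2AK3-DT, a transcript read away from EIF2AK3 whose RefSeq start lies 365 bases from it, passed the test in the same direction with log2 levels of 6.50, 5.98, 6.28, 6.45 and 6.52 in monolayer and 6.95, 7.27, 6.55, 6.97 and 6.98 in RWV. Its groups did not overlap (0.60, adjusted limma p 0.00932), but all 5 monolayer and 4 RWV arrays lay below the dim level, so no fold is given.

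The eIF3 complex, the largest initiation factor, bridges the small subunit and the eIF4 group. Of its 13 measured subunit genes, 4 were lower and 0 higher. The fall was seen in 3 of the 5 subunits outside the PCI and MPN octamer (EIF3B, EIF3I and EIF3J, with EIF3D and EIF3G not past) and in 1 of the 8 octamer subunits, EIF3M, with medians of -0.42 and -0.22. The difference between these parts was not tested. EIF3J, a loosely bound subunit, had log2 levels of 13.61, 13.45, 12.99, 13.94 and 13.34 in monolayer and 12.80, 12.66, 12.41, 12.64 and 12.71 in RWV. No RWV array reached the lowest monolayer array, and the gene was 1.77-fold lower, at -0.82 ± 0.16 (SE) (adjusted limma p 0.00227). Its divergent partner EIF3J-DT, whose RefSeq starts lie 224 to 247 bases away, was at 0.18 ± 0.09 (SE) and did not pass.

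EIF3B, a scaffold of the mobile part of eIF3, and EIF3I, which binds it, were lower by a log2 fold change of -0.59 ± 0.15 (SE) and -0.42 ± 0.11 (SE), both without overlap (adjusted limma p 0.00903 and 0.0131). The dimmer of the 2 spots of EIF3B, at deposited intensities of 9 to 151, was at -0.42 and did not pass. EIF3M, with a pyrimidine start, had log2 levels of 15.07, 15.12, 15.03, 15.40 and 15.18 in monolayer and 14.74, 14.61, 14.68, 14.91 and 15.01 in RWV. These groups did not overlap by a narrow gap (-0.37 ± 0.11 (SE), adjusted limma p 0.0255). The EIF3M call was lost in 5 of the 10 fits that left out 1 array, and at -0.28 without its saturated spot (0.0546, limma).

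Of the other octamer genes, EIF3C and EIF3K each had 1 saturated spot and 1 spot within range, and only the second was lower. EIF3C, a core scaffold, had log2 levels of 15.18, 14.96, 14.96, 14.97 and 14.77 in monolayer and 14.83, 14.44, 14.75, 14.86 and 14.59 in RWV, -0.28 ± 0.11 (SE) (0.0933, limma). Its spot within range was at -0.60 (adjusted limma p 0.0123 over all spots), the saturated one at 0.05. EIF3K, a peripheral subunit, had 15.22, 15.24, 15.08, 15.23 and 15.26 in monolayer and 14.72, 14.78, 14.97, 15.06 and 15.10 in RWV, -0.28 ± 0.10 (SE) (0.0572, limma), with spots at -0.45 (0.0150, limma over all spots) and -0.11. Both genes passed when saturated spots were left out, at -0.60 and -0.45. EIF3A, the largest scaffold subunit, had 11.44, 11.52, 11.23, 10.91 and 11.48 and 11.40, 11.29, 11.20, 10.79 and 11.12, which overlapped. EIF3H had 12.08, 12.10, 12.06, 12.06 and 11.85 in monolayer and 12.62, 12.02, 11.85, 12.27 and 12.04 in RWV, with 2 arrays of each group saturated at its brighter spot.

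EIF3D, which can bind the cap of some messengers, had log2 levels of 12.77, 12.96, 12.82, 12.82 and 12.63 in monolayer and 12.73, 12.57, 12.37, 12.77 and 12.85 in RWV. EIF3A, EIF3H and EIF3D overlapped between the groups and did not pass, at -0.15, 0.13 and -0.14. For EIF3E, a subunit of the PCI fold, every RWV array lay below every monolayer array, though RWV array 4 and the lowest monolayer array both round to 13.31. EIF3E did not pass at -0.30 ± 0.12 (SE) (0.0893, limma). EIF3F, EIF3G and EIF3L lay within 0.11 of 0, at -0.05, 0.06 and -0.11.

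The eIF4 group binds the cap, unwinds the leader and recruits the small subunit, and its helicase paralogues moved in opposite directions. The RefSeq windows of the 2 helicase genes, from 250 bases before the start to 20 bases after it with the transcribed bases in capitals, are given because these genes showed the clearest opposition.
EIF4A1: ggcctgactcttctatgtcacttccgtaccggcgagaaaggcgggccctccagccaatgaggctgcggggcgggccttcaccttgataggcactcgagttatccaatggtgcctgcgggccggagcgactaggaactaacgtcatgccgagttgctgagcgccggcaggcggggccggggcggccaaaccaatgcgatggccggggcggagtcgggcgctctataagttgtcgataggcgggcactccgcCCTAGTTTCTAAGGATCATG
EIF4A2: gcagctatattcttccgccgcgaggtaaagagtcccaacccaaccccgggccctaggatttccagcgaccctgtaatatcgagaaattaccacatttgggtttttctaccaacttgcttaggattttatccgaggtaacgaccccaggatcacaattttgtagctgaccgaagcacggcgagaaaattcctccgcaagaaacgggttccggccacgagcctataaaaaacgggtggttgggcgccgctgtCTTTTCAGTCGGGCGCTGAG
They lie at chr17:7572575-7572844 and chr3:186783327-186783596 on the plus strand (GRCh38.p14). EIF4A1, the main eIF4A helicase of growing cells, has a run of 3 pyrimidines at this start, and EIF4A2 a run of 6. EIF4A1 had log2 levels of 15.40, 15.38, 15.37, 15.36 and 15.30 in monolayer and 14.82, 14.77, 14.95, 14.77 and 14.84 in RWV. It was lower on every RWV array, 1.45-fold, at -0.53 ± 0.08 (SE) (adjusted limma p 0.000578), and all 4 of its spots were lower, at -0.41 to -0.70. Its 1 spot that never saturated had deposited intensities of 11402 to 20354 in monolayer and 6195 to 10589 in RWV, a log2 fold change of -0.70. With each array scaled to its 75th percentile the gene just missed the test, at -0.40 (0.0532, limma).

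EIF4A2, the helicase paralogue linked to differentiated tissues and to microRNA repression, had log2 levels of 10.02, 10.38, 10.62, 9.48 and 10.30 in monolayer. In RWV it had 11.52, 11.62, 10.89, 11.59 and 11.28. Every RWV array lay above every monolayer array, a 2.33-fold higher level (1.22 ± 0.21 (SE), adjusted limma p 0.00115). Its brightest spot read 8835 to 22010 as deposited in monolayer and 20122 to 41174 in RWV, a log2 fold change of 1.62, the next one 691 to 2301 and 2995 to 6542, at 1.71. The third spot, at 20 to 148, did not pass (0.33). Within array set 1 the gene was at 1.00 and within set 2 at 1.55.

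EIF4A3, the DEAD-box helicase of the exon junction complex, and EIF4G2, a scaffold that lacks the site for eIF4E, were each read by 1 spot that saturated on 2 monolayer arrays. EIF4A3 had log2 levels of 15.40, 15.25, 15.27, 15.74 and 15.52 in monolayer and 14.88, 14.49, 15.13, 15.02 and 15.27 in RWV. It was lower with 1 RWV array inside the monolayer range (-0.47 ± 0.15 (SE), adjusted limma p 0.0356), and 6 of the 10 fits without 1 array lost the call. EIF4G2 had 15.63, 15.36, 15.46, 15.58 and 15.82 in monolayer and 14.93, 14.63, 15.38, 14.71 and 15.12 in RWV. RWV array 3 touched the monolayer range, and the gene was lower at -0.62 ± 0.15 (SE) (adjusted limma p 0.00859).

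EIF4G1, the main scaffold of cap binding, has 3 RefSeq starts, and the window of the first holds CACGTG, the core E-box bound by MYC and related factors, at -144 and -67 from the start, shown in capitals. The windows of its other starts do not hold it.
EIF4G1: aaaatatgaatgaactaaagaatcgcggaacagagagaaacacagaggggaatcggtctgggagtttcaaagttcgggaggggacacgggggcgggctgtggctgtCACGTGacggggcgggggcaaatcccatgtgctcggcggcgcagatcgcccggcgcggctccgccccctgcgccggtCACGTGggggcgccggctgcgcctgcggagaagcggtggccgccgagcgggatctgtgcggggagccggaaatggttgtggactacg
It lies at chr3:184314356-184314625 on the plus strand (GRCh38.p14). EIF4G1 was lower by a log2 fold change of -0.57 ± 0.13 (SE), without overlap (adjusted limma p 0.00598), from normalised intensities of 8193 in monolayer to 5508 in RWV. CACGTG, the same on both strands, was in 7.26% of all 35116 windows of 300 bases and in 17.6% of the 68 member windows. The 12 members that held it (EEF2K, EIF1B, EIF2AK2, EIF2B3, EIF3F, EIF3K, EIF4A3, EIF4B, EIF4E, EIF4G1, EIF4H and EIF5A2) had 5 lower, 0 higher and 7 not past, with a median of -0.28, where 18 of all 51 matched members were lower, with a median of -0.21. On either strand TGATGNAA, the composite element of ATF4 and C/EBP factors, was in 3.62% of all windows and in 1.47% of those of members, where EIF4E3 held it. The interferon-stimulated response element was in 3.57% and 8.82%. A match is a description of the letters and not of binding.

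Of the cap-binding proteins, EIF4E2, which competes with eIF4E for caps and represses translation, was lower with no overlap, at -0.49 ± 0.12 (SE) (adjusted limma p 0.00733), and both of its spots were lower. EIF4E itself, with 7 spots, did not pass at -0.27 ± 0.10 (SE) (0.068, limma), and 2 of the 7 were lower. Its 4 brightest spots were at -0.47, -0.39, -0.44 and -0.54. The other 3 read 5 to 104 as deposited, 2 of them below the dim level on every array, and they enter the average. With its brightest spot alone EIF4E passed as lower, at -0.47 (adjusted limma p 0.0141), and it passed in 4 of its 24 alternatives. EIF4E3, near the dim level in both groups, was at 0.28 ± 0.11 (SE) and did not pass (0.0617, limma). EIF4H, a helicase cofactor, was lower with no overlap, at -0.45 ± 0.11 (SE) (adjusted limma p 0.0085). EIF4B, the other cofactor, which has a pyrimidine start, and EIF4ENIF1, the transporter of eIF4E, were at -0.15 ± 0.16 (SE) and 0.09 ± 0.15 (SE) and did not pass.

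The 4E-binding proteins differed in spread. EIF4EBP2 had log2 levels of 9.16, 9.10, 9.48, 8.98 and 9.32 in monolayer and 9.65, 9.43, 9.73, 9.44 and 9.71 in RWV. It was higher with a slight overlap (0.38 ± 0.12 (SE), adjusted limma p 0.028), a call lost in 6 of the 10 fits without 1 array and on the values as deposited (0.17). EIF4EBP1 had 13.64, 13.28, 13.07, 14.17 and 13.08 in monolayer and 14.39, 13.20, 12.64, 14.39 and 14.73 in RWV. RWV arrays 1, 4 and 5 lay above all monolayer arrays and array 3 below them all, with an SD of 0.90, and the gene did not pass at 0.42 ± 0.38 (SE) (0.466, limma). The difference was 0.08 within array set 1 and 0.93 within set 2.

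Of the 5 factors of subunit joining and late steps 4 were lower. EIF5A, whose protein carries the amino acid hypusine and relieves stalled ribosomes, had log2 levels of 12.64, 12.22, 12.11, 12.40 and 11.64 in monolayer. In RWV it had 10.77, 10.71, 11.41, 10.78 and 10.88. All RWV arrays lay below all monolayer arrays, 2.45-fold lower, at -1.29 ± 0.19 (SE) (adjusted limma p 4e-04), the largest fall among the members in this fit. Its 2 spots read 4410 to 9567 and 2862 to 6300 as deposited in monolayer and 1758 to 2737 and 889 to 1618 in RWV. RWV array 3 stood above the other RWV arrays without reaching the monolayer range.

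EIF5A2, the second gene for eIF5A, had log2 levels of 8.97, 8.64, 8.32, 9.50 and 8.79 in monolayer and 8.0, 8.37, 7.94, 8.24 and 8.38 in RWV. The groups overlapped slightly and the gene was lower (-0.66 ± 0.19 (SE), adjusted limma p 0.0226), with spots at -0.96 and -0.35 of which only the first passed. Leaving out monolayer array 1 or RWV array 1 ended the call (adjusted limma p up to 0.0552). EIF5B, the GTPase of subunit joining, was lower on all RWV arrays at -0.57 ± 0.13 (SE) (adjusted limma p 0.00633), and 9 of its 10 spots passed. EIF6, which keeps the large subunit free until it is needed, was lower with no overlap at -0.52 ± 0.15 (SE) (adjusted limma p 0.0196), a call lost without monolayer array 1 (0.0530, limma). EIF5, the GTPase activator of eIF2, missed the threshold at -0.49 ± 0.17 (SE) (0.0503, limma), with 2 of 4 spots lower, at -1.06 and -0.67, and 1 at 0.42. It passed in 8 of its 24 alternatives, with an adjusted limma p of 0.0358 with the array set as a block.

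Of the 6 elongation factors proper, 5 had a saturated spot and did not pass, and 1, EEF1A2, had none and passed. EEF1A2, the isoform of muscle and nerve that some tumours express, had log2 levels of 10.83, 10.75, 10.77, 10.59 and 10.80 in monolayer. In RWV it had 11.99, 12.11, 11.84, 12.18 and 12.10. The groups were far apart with narrow spreads, a 2.46-fold higher level (1.30 ± 0.10 (SE), adjusted limma p 2.05e-05), and EEF1A2 passed in all 24 alternative fits run on it. It was read by 1 spot that was neither dim nor saturated. The fits that dropped dim or saturated spots or took the brightest spot therefore could not alter its level. All these fits reuse the same spot and arrays, so they are no independent check. Within array sets 1 and 2 the log2 fold change was 1.20 and 1.45.

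EEF1A1, the common isoform, had log2 levels of 13.83, 13.89, 13.91, 13.46 and 13.71 in monolayer and 13.96, 14.03, 13.91, 13.81 and 13.77 in RWV, which overlapped. It did not pass at 0.14 ± 0.11 (SE) (0.403, limma), nor did any of its 6 spots, 2 of which saturated. EEF2, the translocase, read by 1 spot, had 15.70, 15.89, 15.90, 14.99 and 15.98 in monolayer and 16, 15.99, 15.75, 15.99 and 16 in RWV. Monolayer array 4 was low, 4 RWV arrays were saturated, and the gene was at 0.25 ± 0.17 (SE) (0.318, limma), with a value of 0.08 without monolayer array 4.

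The exchange factor subunits EEF1B2, EEF1D and EEF1G reload eEF1A with GTP. EEF1B2 had log2 levels of 15.45, 15.40, 15.43, 15.56 and 15.40 in monolayer and 15.53, 15.34, 15.27, 15.55 and 15.58 in RWV. EEF1G had 15.86, 15.91, 15.85, 15.59 and 15.68 in monolayer and 15.82, 15.85, 15.76, 15.82 and 15.56 in RWV, with all 3 spots saturated on some array. EEF1D had 14.62, 14.78, 14.46, 14.73 and 14.54 and 14.52, 14.46, 14.33, 14.33 and 14.33. All 3 overlapped between the groups and did not pass, at 0.00, -0.02 and -0.23. Of the 8 spots of EEF1D, 6 saturated and lay within 0.05 of 0, 1 was at 0.10, and the dimmest was lower at -1.68, from 170 to 1001 as deposited in monolayer to 49 to 147 in RWV. Without the saturated spots EEF1D was at -0.79 (adjusted limma p 0.0188), which rests on that spot and 1 other. The probe's place in the gene is not used here.

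Enzymes that modify the elongation factors moved both ways. EEF1AKMT2, a lysine methyltransferase of eEF1A, had log2 levels of 10.39, 10.30, 9.77, 10.30 and 9.77 in monolayer. In RWV it had 8.80, 9.12, 9.06, 8.56 and 8.97. The groups lay well apart, 2.31-fold lower in RWV (-1.21 ± 0.16 (SE), adjusted limma p 0.000229). EEF1AKMT3, which methylates another lysine, had 7.93, 8.28, 8.10, 7.85 and 7.95 in monolayer and 8.52, 8.71, 8.30, 8.44 and 8.19 in RWV. It was higher with a slight overlap (0.41 ± 0.12 (SE), adjusted limma p 0.0265), 1 of its 2 spots passed, and 6 of 10 fits without 1 array lost the call. EEF1AKMT1, EEF2KMT and EEF2K, the kinase that switches off eEF2, were at 0.06, 0.10 and 0.22 and did not pass. The brighter of the 2 spots of EEF2K was higher at 0.34 (adjusted limma p 0.0457 over all spots). Its other spot, at 0.09, lay below the dim level on every array. The pseudogenes EEF1DP3 and EEF1DP4 were at 0.20 and 0.29 and did not pass.

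Whether paralogues or partners changed relative to each other was tested on the difference of their log2 levels within each array. The difference is not a ratio of abundance, since probes differ in brightness, but its change between groups can be compared. Of 12 pairs, 5 passed an exact two-sided permutation test over all assignments of the arrays to the groups, adjusted over the pairs, and 4 of them reached 0.0079, the smallest p these can give. EIF4A1 minus EIF4A2 ran from 4.75 to 5.88 over the monolayer arrays and from 3.15 to 4.06 over the RWV arrays, a change of -1.75 (adjusted exact p 0.0238), and it was -1.91 over the EIF4A1 spot that never saturated (adjusted exact p 0.0198). EEF1A1 minus EEF1A2 was 2.87 to 3.15 and 1.63 to 2.07, a change of -1.16 (adjusted exact p 0.0238), or -1.09 without the 2 saturated spots of EEF1A1 (0.0198, exact). Of the 10 pairs that could be compared without saturated spots 6 passed, EIF3A minus EIF3C being the added one, with EIF3A then read by 1 spot near the dim level.

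The gamma minus the alpha subunit of eIF2, EIF2S3 minus EIF2S1, ran from -0.85 to -0.11 over the monolayer arrays and from 0.04 to 0.75 over the RWV arrays. The change was 0.80 (adjusted exact p 0.0238), and the difference of these subunits on every RWV array lay above that on every monolayer array. EIF2AK3 minus EIF2AK4, PERK against GCN2, was -2.58 to -2.08 and -1.71 to -0.91, a change of 0.99 at the same adjusted exact p. EIF4E minus EIF4E3 changed by -0.55 (adjusted exact p 0.0381), with EIF4E3 near the dim level, and missed the threshold in 7 of the 10 repeats that left out 1 array (0.0571 in each, exact). EIF5A minus EIF5A2 changed by -0.63 and did not pass (adjusted exact p 0.111). The other 6 pairs did not pass, with changes of 0.22 for EIF4E minus EIF4E2, 0.12 for EIF3A minus EIF3C (0.58 without saturated spots, adjusted exact p 0.0397) and 0.05 or less in size for EIF4G1 minus EIF4G2, EIF4EBP1 minus EIF4EBP2, EEF2 minus EEF2K and EIF2AK2 minus EIF2AK1. The single spots of EIF4G2 and EEF2 saturated, so those values rest on clipped levels. The 0.58 sets EIF3C against 1 remaining EIF3A spot, near the dim level at -0.02. That spot read 82 to 94 as deposited in monolayer and 60 to 93 in RWV. The 5 changes kept their sign on the values as deposited, with 75th percentile scaling and with cyclic loess, while EIF4G1 minus EIF4G2 and EIF4EBP1 minus EIF4EBP2 did not.

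**Figure D3:**
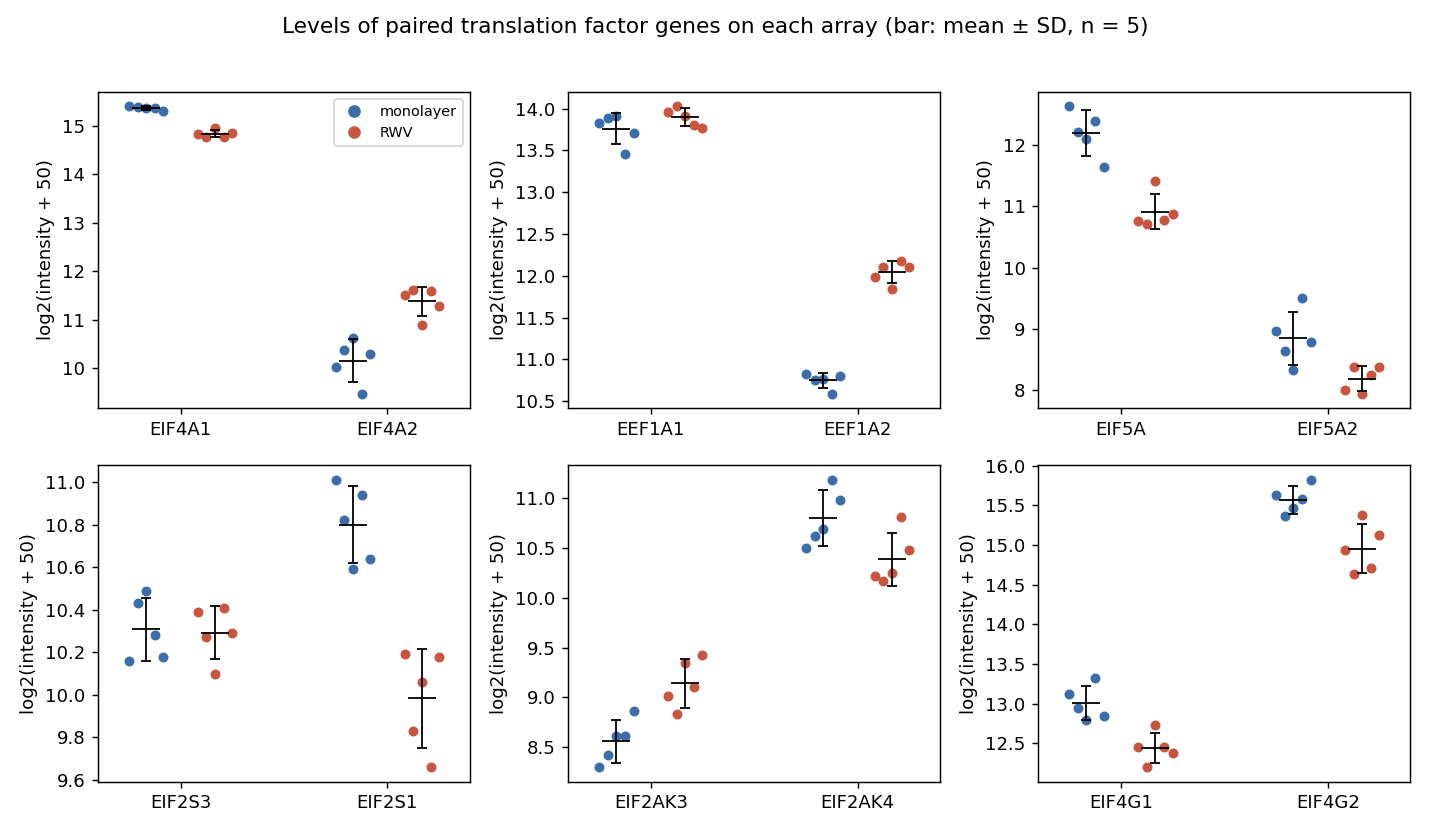
Log2 level on each array of 6 pairs of genes, with points for arrays and bars for the mean ± SD of 5 arrays. EIF4A1 is lower and EIF4A2 higher in RWV, EEF1A2 is higher while the arrays of EEF1A1 overlap, and EIF2S1 is lower while those of EIF2S3 overlap.

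Of the 147 spots, 41 were lower and 10 higher when each was tested by itself, 34.7% past the test against 28.6% of all spots. None of the 66 genes had spots past the test in both directions. On at least 1 array 26 spots reached 60000, and 4 did so on every array: the brightest of EEF1A1, 2 of EEF1D and 1 of EIF1. The brightest readings themselves differed by group: among all spots at or above 60000 the median was 63228 to 63713.5 on monolayer arrays and 65464 to 65468 on RWV arrays. The part of this in the values of saturated spots was not tested. Among the 15 genes with a saturated spot 4 were lower and 0 higher, with a median of -0.15. The 51 genes with none had 14 lower and 6 higher, with a median of -0.11.

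**Figure D4:**
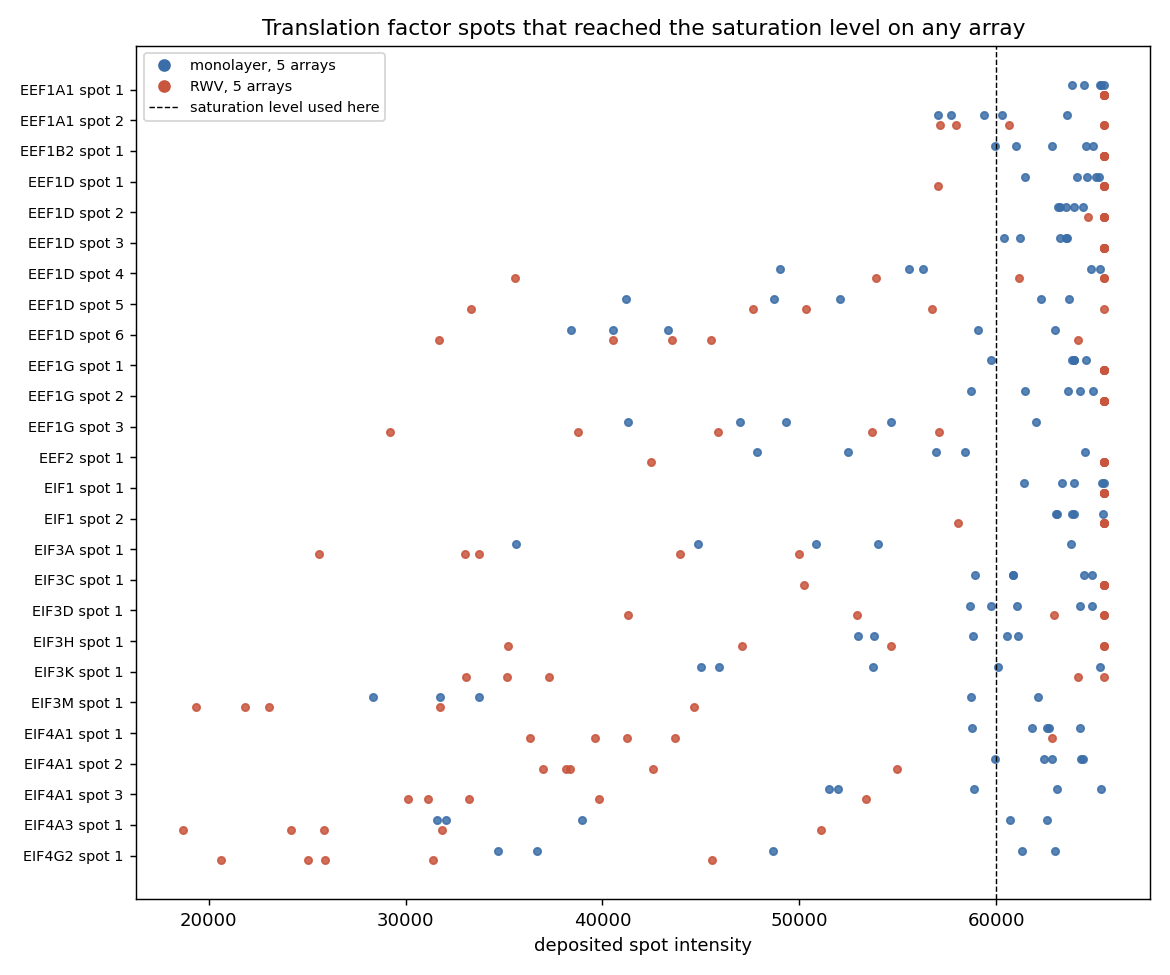
Deposited intensity on each array of the 26 spots that reached 60000 on any array, monolayer in blue above RWV in red, with the saturation level dashed. Most RWV points past the dashed line stack at the right edge, while monolayer points past it are spread out, and the spots of EIF3A, EIF3M, EIF4A3 and EIF4G2, EEF1G spot 3 and EIF4A1 spots 2 and 3 pass it on monolayer arrays only.

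Genes that work beside these factors are given by list, with the same test. Of all genes 14.8% were higher and 15.4% lower, 30.2% past the test. The lists are short and were not tested as sets, so their counts are a description. Of 12 genes of eIF2 phosphorylation and its response, 7 were higher and 1 lower, with a median of 0.55. RWV array 3 stood below the other RWV arrays for several of them, and without it 11 were higher and 1 lower, with a median of 0.85. The array was left out because of these values, so larger changes without it follow from that choice and are a description. CHAC1 read 10.47 on that array and 11.90 to 12.60 on the other RWV arrays, against 10.40 to 10.93 in monolayer. TRIB3 and ASNS, which also rise with ATF4 activity, read 11.80 and 12.32 there against at least 13.08 and 14.44 on the others, and did not pass with it (0.162 and 0.577, limma) but did without it (adjusted limma p 0.00448 and 0.0300). The single ASNS spot saturated on 1 RWV array, and 1 of the 2 TRIB3 spots on 2 RWV arrays. ATF3, a stress transcription factor, had log2 levels of 8.41, 7.27, 7.46, 8.09 and 9.29 in monolayer and 11.10, 11.92, 11.27, 9.46 and 10.79 in RWV, a change of 2.81 ± 0.45 (SE, adjusted limma p 0.000751). PPP1R15A, or GADD34, which returns phosphatase to eIF2, and CHAC1, a glutathione-degrading enzyme, changed by 1.78 ± 0.42 and 1.38 ± 0.35 (adjusted limma p 0.00708 and 0.0109). ATF4, whose messenger is translated when eIF2 is phosphorylated, did not pass at 0.27 (0.313, limma), was at 0.41 without its 1 saturated spot (0.206, limma) and passed at 0.45 without RWV array 3 (adjusted limma p 0.00704). EIF2AK3 was higher beside them and EIF2S1 lower, as given above.

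Termination and recycling had 2 of 6 genes lower and 0 higher, where 30.2% of all genes passed the test. The lower ones were the ribosome splitter ABCE1 at -0.53 and the release factor ETF1 at -0.45. In the list of hypusine and diphthamide enzymes, which modify eIF5A and eEF2, 3 of 7 measured genes were lower. DOHH, which completes hypusine on eIF5A, was at -0.64 ± 0.13 (SE, adjusted limma p 0.00322), beside the fall of EIF5A itself, and DPH6 and DPH2 of the diphthamide pathway were at -0.51 and -0.47. Mitochondrial translation factors had 4 of 9 lower and 1 higher, with TSFM at -0.79, MRRF at -0.71 and MTIF3 at 0.66. Of 9 poly(A)-binding and subunit recruitment genes 2 were higher and 2 lower. PDCD4, an inhibitor of eIF4A, was higher at 0.84 ± 0.19 (SE, adjusted limma p 0.00586), DENR, a recycling factor, lower at -0.83, and PAIP2, an inhibitor of poly(A)-binding protein, higher at 0.52.

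Upstream of the 4E-binding proteins, 1 of 14 genes of mTORC1, S6K and MNK signalling was higher and 2 lower. Of all genes 14.8% were higher and 15.4% lower, so this list did not stand out by its calls. DDIT4, an inhibitor of mTORC1 activity, was higher at 0.92 ± 0.16 (SE, adjusted limma p 0.00107), and at 0.71 without its spot that saturated on 4 RWV arrays (adjusted limma p 0.00379). RHEB, the GTPase that activates mTORC1, was lower at -0.41 ± 0.08 (0.00316, limma). RPS6KB1, the S6 kinase, was lower at -0.34, and MTOR was at -0.05 and did not pass. In the selenocysteine list SECISBP2 was higher at 0.53 and EEFSEC did not pass at -0.20. These values are RNA levels, and phosphorylation of eIF2, of the 4E-binding proteins or of eEF2 was not measured.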

How the data were processed

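Per the labels, Cy3 was attached to total RNA of A549 cells with an Agilent kit, and each of 5 monolayer and 5 RWV cultures was read on 1 array. Groups were taken from the sample titles, since the growth protocol in the labels names RWV for every sample. The deposited values are spot intensities on a linear scale, 45220 per array, whole numbers from -66 to 65493. Values below 0 show that the authors deposited them after some subtraction of background, and no normalization between arrays is visible. The sources used here name no scanner or extraction software. Precision is limited by the number of arrays.

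The platform annotation named 31425 spots, 31332 of them with 1 symbol and 93 with several, and none of the latter carried an EIF or EEF symbol. The 30.5% of spots without annotation were left out. Intensities of the single-symbol spots were quantile normalised with limma 3.58.1 in R 4.3.3, set to 0 where negative, raised by a pseudocount of 50 and put on the log2 scale, so that changes of dim genes come out too small. Log2 values were averaged over the spots of a gene. The test was two-sided (lmFit, eBayes), its p-values were adjusted over all 18334 genes by the Benjamini-Hochberg method, the threshold was 0.05, and the scripts were tested on simulated data. Pairs were compared with an exact permutation test over all assignments of the arrays. EIF4G1 against EIF4G3, a pair also planned, was not analysed here. Spots at or above 60000 as deposited counted as saturated, and spots below 100 after normalization as dim. The R package data.table (version 1.17.8) read the files, and Python 3.11.15 with pandas 2.3.3 and matplotlib 3.10.9 drew the figures.

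Every member is named. Values on every array are given for the 6 largest rises and falls, for the leading member of each family, for members with a saturated spot and, added later, for EIF4EBP1. Of each list of other genes up to 3 past the test with the largest change are named. ATF4, TRIB3, ASNS, MTOR and EEFSEC lie outside this rule and were chosen after their values were seen. The members, lists and tests were chosen with earlier results of these data known. Array sets were told apart by whether the 5th percentile of the deposited values reached 5. Same-numbered arrays deviated from their group means with correlations of 0.03, 0.22, -0.15, 0.11 and 0.11, so the numbers were not taken to pair the samples. Counting the eIF2 response list without RWV array 3 was added after its values were seen. Start windows are those of RefSeq for GRCh38.p14, from 250 bases before to 50 after a start. The array annotation names no build, so no probe coordinates are given.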

Additional observations from a re-analysis of the deposited data

Results flagged for a closer look

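In 168 groups of 5 arrays (84 genes), 12 single arrays stood apart from the other 4 by a gap, taken as a share of the range, above the 95% critical value of Dixon's test, and chance alone sets apart about 1 in 20 groups. Monolayer array 4 was low for EEF2, at a log2 level of 14.99 where the others lay at 15.70 to 15.98, for EIF1 at 15.92 and for PAIP2 at 13.02. RWV array 3 was low for EEF2 at 15.75 and for EIF3E at 12.69, and high for EIF5A at 11.41, where the other RWV arrays lay at 10.71 to 10.88 and all monolayer arrays at 11.64 or above. The EEF2 spot was saturated on the other 4 RWV arrays and on monolayer array 5. Both EIF1 spots were saturated on all 5 monolayer arrays, array 4 included, so its low value is an order among clipped readings. Monolayer array 5 was low for EIF2B5 at 10.55 and for EIF3H at 11.85, and monolayer array 3 for EIF3K at 15.08 and RPS6KB1 at 9.56. RWV array 4 was low for PPP1R15A at 10.56, and RWV array 5 high for DPH6 at 8.53. Of these genes EIF5A, PAIP2, PPP1R15A, DPH6 and RPS6KB1 passed the test between the cultures.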

How the results depend on the processing

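The count of members past the test, 24 (6 higher and 18 lower), was 10 within array set 1 (3 and 7) and 1 within array set 2 (1 and 0), where 16.7% and 5.76% of all genes passed with 3 and 2 arrays a group. On the values as deposited 16 passed (3 and 13), the median of the members was -0.32 and that of all genes -0.13, and 29.2% of all calls were higher against 49.0% in the reported fit. The median of the members was -0.05 within set 2. Leaving out 1 array gave 18 to 25 members past the test, 4 to 6 higher and 14 to 20 lower, medians of -0.15 to -0.10, and 4 to 6 pairs past the exact test. Without monolayer 4 and RWV 3, which stood apart in earlier work on these data, 23 passed (9 and 14), and 0 pairs did, with 6 pairs at an adjusted exact p of 0.0571. With an array fewer in each group the smallest p of the exact test is larger, and these 6 pairs were at it. The 0 pairs therefore cannot show whether the changes were lost. With the replicate block 25 passed (6 and 19). Pseudocounts of 16 and 200 gave 22 and 29, cyclic loess 21, 75th percentile scaling 19, a block for the array set 27, the dim filter 27, the brightest spot 26, and the fit without saturated spots 25 of 61 genes. The 27 of the dim filter were 41.5% of 65 members, against 47.8% of the 12135 genes left. None of the 24 members past the test changed sign under these alternatives, and 22 of the 42 others did under at least 1, EEF1A1 among them at -0.10 with the brightest spot. The alternatives reuse the arrays that gave the 24 calls, so the kept signs are no independent check. The calls of EEF1AKMT3, EIF1AX, EIF3M, EIF4A3 and EIF4EBP2 were lost in 10 to 15 of the 23 or 24 alternatives run on each. Saturation of the brightest elongation factor spots and signal near background for EIF2AK3-DT and EIF4E3 limit what these arrays can show, and the cause of each shift between settings was not tested.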
